A study of Mus musculus with 9 samples.

Results

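The Wnt set examined here holds 51 of the 55487 genes counted in 9 RNA-seq libraries of MCEC, an established line of murine cardiac endothelial cells. Its members are the protein-coding genes named Wnt, Fzd, Dkk, Sfrp or Rspo with a number, together with Lrp5, Lrp6, Ror1, Ror2, Frzb, Wif1, Ctnnb1, Tcf7, Lef1 and Axin2. They comprise 19 ligands, 10 Frizzled receptors, 4 co-receptors, 4 R-spondins, 10 secreted antagonists and 4 genes for transducers or readouts of the signal. The rule itself reads gene names alone. The libraries form 3 groups of 3: wild-type cells (WT), cells with Zbtb46 knockdown (KD) and cells with Zbtb46 overexpression (OE). Zbtb46 encodes a zinc finger transcription factor with a BTB domain. The labels give no method for the knockdown or the overexpression, and do not say whether the 3 libraries of a group came from separate cultures, so p-values measure the spread between these libraries, which may be technical. No library of cells carrying a control vector was analysed here.

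Wnt proteins are secreted, lipid-modified ligands that bind Frizzled receptors on the surface of the same or a neighbouring cell. With the co-receptors Lrp5 or Lrp6 they stop the destruction of β-catenin, the product of Ctnnb1, which then enters the nucleus and acts with TCF/LEF factors such as Tcf7 and Lef1. Other Wnt ligands, among them Wnt5a, Wnt5b and Wnt11, signal mainly without β-catenin, through Ror receptors, planar polarity proteins or calcium. R-spondins strengthen the signal by keeping Frizzleds on the membrane, whereas the Dkk, Sfrp, Frzb and Wif1 proteins are secreted inhibitors. In endothelium the pathway is best known for vessel growth and barrier formation in brain and retina, and in the heart for the formation of the valves.

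Total counts ran from 39491828 to 55745849 per library. Zbtb46 stood at 13.7 ± 0.623 CPM in WT (counts relative to the TMM-scaled library total; mean ± SD, n = 3), at 11.2 ± 0.537 CPM in KD and at 191 ± 2.67 CPM in OE. Its log2 fold change against WT was -0.28 in KD (edgeR adjusted p = 0.00144) and 3.81 in OE (edgeR adjusted p = 3.22e-21). Of 16 endothelial markers, 6 reached 1 CPM in a group, led by Eng and Flt1. Erg had 0 counts in all libraries, and Pecam1, Cdh5, Cldn5, Emcn and Vwf were at or near 0. The summed level of the 16 was 152 to 164 CPM in WT, 126 to 133 CPM in KD and 115 to 127 CPM in OE. Most of it was Eng, at means of 124.5, 108.2 and 84.9 CPM. In OE the means of Eng, Kdr, Tek and Egfl7 were below WT. Those of Flt1 (17.2 CPM in WT, 21.9 CPM in OE) and Ecscr (4.73 and 8.18 CPM) were above it. The 12 fibroblast and mural markers, of which 6 reached 1 CPM, summed to 8104 to 8973 CPM in WT, 8048 to 8175 CPM in KD and 5079 to 5190 CPM in OE, mostly from Col1a1 and Col3a1. Cardiomyocyte markers summed to 0.756 to 1.05 CPM in WT, 7.55 to 8.56 CPM in KD and 6.37 to 7.96 CPM in OE (mostly Actc1), leukocyte markers to at most 5.75 CPM in any library, and epithelial markers to 437 to 563 CPM, nearly all of it Krt19. Ribosomal RNA took 7.44 to 17.3% of counts in WT, 9.55 to 12.0% in KD and 14.4 to 18.2% in OE. The part of these differences in the results below was not tested.

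Of the 51 members, 28 passed the filter on low counts and were tested. Of these, 12 differed between KD and WT at an edgeR adjusted p under 0.05, 4 higher and 8 lower in KD, where 21.3% of all 16955 genes tested did so (11.0% higher and 10.4% lower). Between OE and WT 17 of the 28 differed, 5 higher and 12 lower in OE, against 36.4% of all genes (17.0% higher and 19.5% lower). Between OE and KD 20 differed, 7 higher and 13 lower in OE, against 41.5% of all genes (19.4% higher and 22.1% lower). Scaled by library totals alone, 8 members differed in KD, 1 higher and 7 lower. The median size of the log2 fold change among the tested members was 0.19 for KD, 0.50 for OE and 0.58 for OE against KD, beside 0.16, 0.22 and 0.25 over all genes tested. The signed medians were -0.038, -0.20 and -0.085 for the members. The 28 are not the whole set, and Wnt6 passed the filter only through its OE libraries. The groups did not overlap for 13 members between KD and WT (34.7% of all genes), for 19 between OE and WT (45.1%) and for 21 between OE and KD (55.4%). KD and OE are compared with the same 3 WT libraries, so their values against WT are given side by side only.

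**Figure D1:**
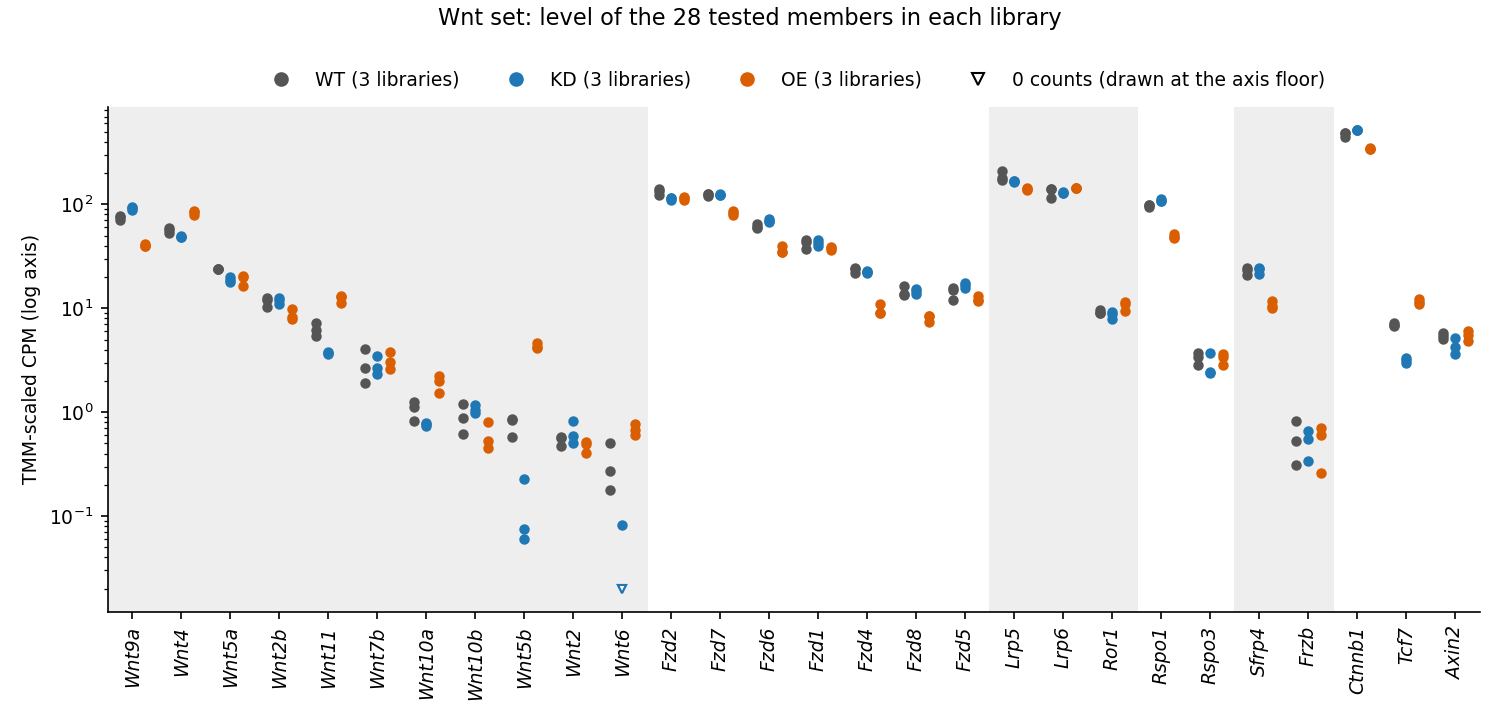
Level of each of the 28 tested members in each of the 9 libraries, as TMM-scaled CPM on a log axis; every point is 1 library, coloured by group, and shaded bands separate the ligands, Frizzleds, co-receptors, R-spondins, antagonists and transducers. The points of Wnt5b, Wnt11 and Tcf7 rise from KD over WT to OE, those of Wnt9a, Rspo1, Fzd4 and Sfrp4 are lowest in OE, and the open triangle marks the KD libraries in which Wnt6 had 0 counts.

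Among the ligands, the sharpest contrast between the groups was that of Wnt5b, a ligand of β-catenin-independent signalling. It had 0.580, 0.840 and 0.850 CPM in the WT libraries, 0.0596, 0.0754 and 0.225 CPM in KD, and 4.13, 4.66 and 4.27 CPM in OE. These levels rest on 22, 50 and 38 counts in WT, 3, 3 and 11 counts in KD, and 194, 231 and 192 counts in OE. The 3 groups were separate, with every KD library lowest and every OE library highest. Against WT the log2 fold change was -2.62 (SE 0.47, edgeR adjusted p = 3.47e-05) in KD and 2.50 (SE 0.18, edgeR adjusted p = 6.67e-08) in OE, and OE exceeded KD by 5.13 (SE 0.44), or 34.9-fold. Wnt5b (ENSMUSG00000030170) lies at chr6:119432531-119544347 on the minus strand (GRCm38, annotation GENCODE M21) and overlaps Fbxl14 on the opposite strand. How the counting used strand is not given in the sources used here, so reads of such partners cannot be told apart.

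Wnt11, known for its part in heart development through the same kind of signalling, was ordered likewise. Its libraries read 5.46, 7.24 and 6.13 CPM in WT, 3.72, 3.79 and 3.61 CPM in KD, and 11.3, 12.9 and 13.2 CPM in OE. No KD library reached the lowest WT library, and no OE library came down to the highest. The log2 fold change against WT was -0.77 (SE 0.12, edgeR adjusted p = 0.00013) in KD and 0.98 (SE 0.14, edgeR adjusted p = 8.96e-07) in OE. Wnt11 (ENSMUSG00000015957, chr7:98835112-98855195, plus strand) overlaps Gm8398 on the opposite strand.

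Wnt9a, a ligand active in heart valve formation, had the highest level per kilobase among the ligands of WT cells and moved the other way. Its levels were 76.8, 70.0 and 75.9 CPM in WT, 93.5, 88.5 and 91.8 CPM in KD, and 39.7, 41.3 and 40.0 CPM in OE. All KD libraries lay above and all OE libraries below the WT range. The log2 fold change was 0.30 (SE 0.048, edgeR adjusted p = 0.000132) in KD and -0.88 (SE 0.046, edgeR adjusted p = 1.76e-11) in OE. Wnt9a (ENSMUSG00000000126) lies at chr11:59306928-59333552 on the plus strand and overlaps no other annotated gene. Its neighbour Wnt3a, 16175 bases away on the opposite strand, had at most 2 counts in a library.

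Wnt4, known for its roles in kidney and gonad, came next per kilobase. It stood at 56.8, 53.3 and 59.6 CPM in WT, 49.0, 49.4 and 48.0 CPM in KD, and 78.4, 83.9 and 85.6 CPM in OE, again as 3 separate groups. Its log2 fold change was -0.21 (SE 0.048, edgeR adjusted p = 0.00619) in KD and 0.55 (SE 0.060, edgeR adjusted p = 4.19e-08) in OE. Wnt4 (ENSMUSG00000036856, chr4:137277489-137299726) lies in a stretch of chromosome 4 whose genes shifted together, described with the regional medians.

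Wnt5a, the best-studied ligand of planar polarity, was lower in KD and in OE than in WT. It read 24.1, 24.0 and 23.9 CPM in WT, 17.8, 19.8 and 18.7 CPM in KD, and 16.5, 19.9 and 20.6 CPM in OE. The altered groups overlapped each other and neither reached WT. The log2 fold changes were -0.36 (SE 0.045, edgeR adjusted p = 0.00252) and -0.34 (SE 0.099, edgeR adjusted p = 0.00209), and OE and KD differed by 0.021 (SE 0.11, edgeR adjusted p = 0.864). Wnt2b had 10.2, 12.0 and 12.4 CPM in WT, 10.9, 12.0 and 12.5 CPM in KD, and 9.89, 8.30 and 7.96 CPM in OE. It fell by 0.41 on the log2 scale in OE (SE 0.13, edgeR adjusted p = 0.0043), and its KD value of 0.028 did not pass the test (edgeR adjusted p = 0.897).

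Wnt10a, known from tooth and hair development, had 1.27, 0.823 and 1.12 CPM in WT, 0.775, 0.728 and 0.779 CPM in KD, and 1.51, 1.98 and 2.24 CPM in OE. The OE libraries all lay above WT (log2 fold change 0.85, SE 0.24, edgeR adjusted p = 0.00939). This call was lost without WT replicate 2 (0.67, edgeR adjusted p = 0.0526) and without OE replicate 3 (0.72, edgeR adjusted p = 0.0536), and the KD value of -0.47 did not pass (edgeR adjusted p = 0.239). Wnt6 lies 6193 bases from Wnt10a on chromosome 1 and had 19, 16 and 8 counts in WT, 0, 0 and 4 in KD, and 36, 30 and 30 in OE. Its fall in KD passed (edgeR adjusted p = 0.0047), but rests on so few counts that its fitted size is uncertain, and its OE value against WT was 1.13 (SE 0.39, edgeR adjusted p = 0.105). Since Wnt6 was kept by the filter only through OE, its difference between OE and KD, which also passed, is given by these counts alone. For Wnt10a OE and KD differed by 1.32 (SE 0.17, edgeR adjusted p = 0.00023). Wnt6 overlaps Gm29539 on the opposite strand.

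The other tested ligands showed no difference from WT that passed. Wnt7b varied as much within WT (4.09, 1.92 and 2.66 CPM) as between groups, with 2.30, 3.47 and 2.64 CPM in KD and 3.79, 3.07 and 2.58 CPM in OE. Wnt10b had 0.870, 0.622 and 1.19 CPM in WT, 1.17, 0.980 and 1.04 CPM in KD, and 0.448, 0.808 and 0.533 CPM in OE. Only its difference between OE and KD passed, at -0.83 (SE 0.25, edgeR adjusted p = 0.0454), and that call held in 10 of 18 alternative settings, being lost without OE replicate 1 (-0.66, edgeR adjusted p = 0.161), OE replicate 3 (-0.76, edgeR adjusted p = 0.114) and each of the KD replicates (-0.89 to -0.77). Wnt2 averaged 0.537 CPM in WT, 0.639 CPM in KD and 0.468 CPM in OE, from 20 to 40 counts a library. In all, 1 ligand was higher and 5 were lower in KD, and 4 were higher and 3 lower in OE, of 11 tested, where 11.0% of all genes were higher and 10.4% lower in KD, and 17.0% and 19.5% in OE.

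To show the start regions of 3 ligands and 1 receptor whose OE and KD libraries stood apart, chosen after their values were seen, the 250 bases upstream of the RefSeq start were read for the ligands Wnt5b, Wnt11 and Wnt9a and for the receptor Fzd4 (GRCm38.p6, 5′ to 3′ on the gene's strand, at its furthest upstream listed start). Capitals mark matches to CTTTGA or CTTTGT, the core letters bound by TCF/LEF factors, searched on both strands; the 2 motifs cannot overlap each other on 1 strand.
Wnt5b, chr6:119544348-119544597, minus strand: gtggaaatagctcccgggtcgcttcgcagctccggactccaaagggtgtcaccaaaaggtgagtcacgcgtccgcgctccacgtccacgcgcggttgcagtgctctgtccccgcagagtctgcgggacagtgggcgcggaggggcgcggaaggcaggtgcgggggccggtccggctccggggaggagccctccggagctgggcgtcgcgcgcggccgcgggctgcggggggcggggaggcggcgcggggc
Wnt11, chr7:98834862-98835111, plus strand: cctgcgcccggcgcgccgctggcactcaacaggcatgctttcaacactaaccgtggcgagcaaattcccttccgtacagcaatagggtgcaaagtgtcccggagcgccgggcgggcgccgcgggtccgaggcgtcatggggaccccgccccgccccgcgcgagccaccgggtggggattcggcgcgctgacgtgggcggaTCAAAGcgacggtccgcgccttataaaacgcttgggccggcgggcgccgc
Wnt9a, chr11:59306680-59306929, plus strand: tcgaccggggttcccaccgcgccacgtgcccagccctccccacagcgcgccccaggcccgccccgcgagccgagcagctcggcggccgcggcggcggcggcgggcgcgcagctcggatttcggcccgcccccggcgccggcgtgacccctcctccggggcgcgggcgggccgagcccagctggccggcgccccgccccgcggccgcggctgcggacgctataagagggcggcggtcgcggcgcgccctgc
Fzd4, chr7:89404116-89404365, plus strand: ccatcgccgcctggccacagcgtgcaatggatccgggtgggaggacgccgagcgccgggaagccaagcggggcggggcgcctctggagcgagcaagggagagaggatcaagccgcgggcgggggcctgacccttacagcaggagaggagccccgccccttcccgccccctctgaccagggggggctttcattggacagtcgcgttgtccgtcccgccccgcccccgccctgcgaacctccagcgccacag
All 4 windows were rich in G and C, at 75.2% for Wnt5b, 70.8% for Wnt11, 84.4% for Wnt9a and 72.8% for Fzd4, where the median window of all genes held 52.4%. They held 35, 37, 48 and 25 CpG dinucleotides, against a median of 6. The only match was in Wnt11, where CTTTGA on the minus strand, read as TCAAAG, begins 50 bases upstream of the start. Such a match is common: 27.6% of the 32851 windows of all genes hold at least 1, as did 25.6% of the 43 windows of the 35 members in the table.

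Because CPM does not allow for gene length, levels of different members were compared per kilobase of annotated exon. On that scale the 19 ligands had a summed WT level of 45.2 ± 1.92 CPM per kb (SD, n = 3), beside 46.7 ± 0.407 for KD and 43.3 ± 1.34 for OE, with libraries that overlap between WT and each altered group. The KD libraries (46.2 to 47.0) all lay above the OE libraries (41.7 to 44.1). The make-up of the sum differed as well. Wnt9a supplied 49.3% of the ligand sum in WT, 58.7% in KD and 28.0% in OE, whereas Wnt4 supplied 29.8%, 24.9% and 45.5%. Wnt9a was thus the leading ligand in WT and KD, and Wnt4 in OE, where Wnt4 reached 19.7 ± 0.894 CPM per kb beside 12.1 ± 0.247 for Wnt9a. Wnt11 made up 3.37%, 1.92% and 6.94% of the sum, and Wnt5b 0.632%, 0.0967% and 3.79%.

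**Figure D2:**
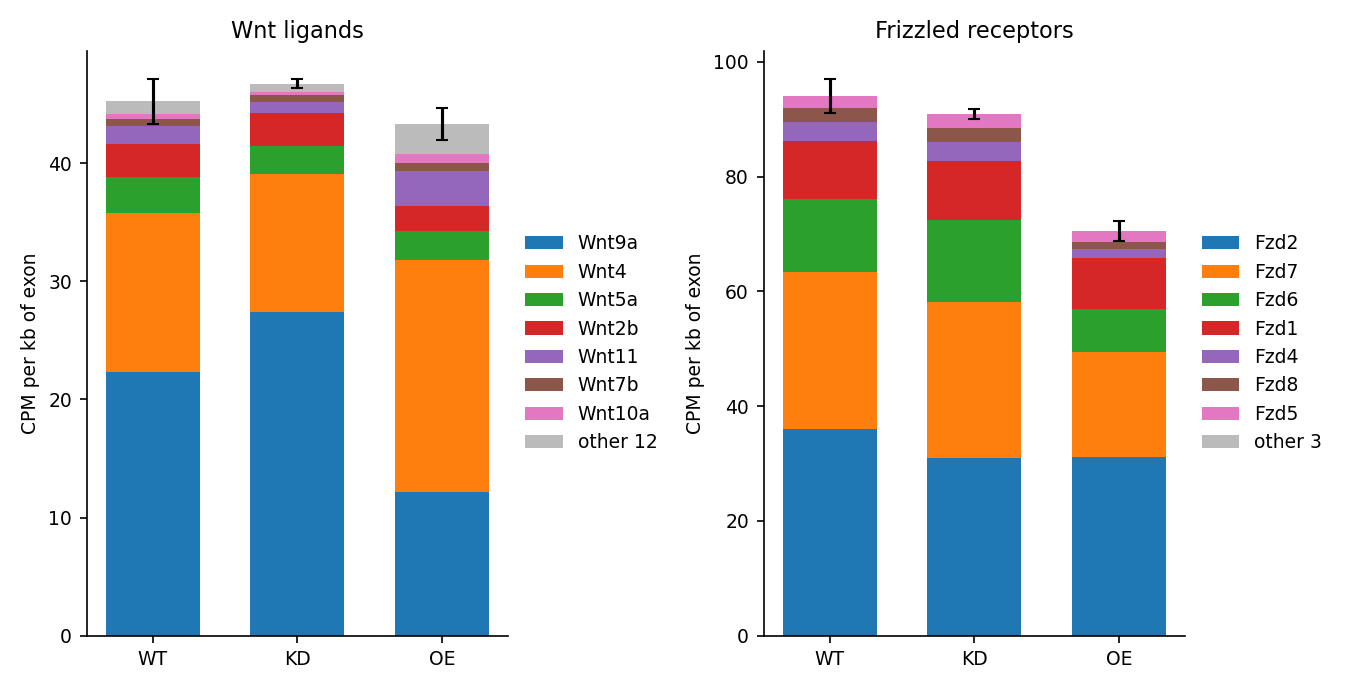
Stacked mean levels of the ligands (left) and Frizzled receptors (right) in WT, KD and OE, in CPM per kb of exon; error bars are the SD of the summed level over 3 libraries, and members beyond the 7 highest are grouped. The ligand columns reach 45.2, 46.7 and 43.3 while the share of Wnt9a shrinks and that of Wnt4 grows in OE, and the Frizzled column of OE stops at 70.5, below 94.1 in WT.

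Most of the Frizzled receptors, which bind Wnt ligands directly, were lower in OE. Of 7 tested, 5 fell and none rose in OE, and 2 did not pass, where 19.5% of all genes fell and 17.0% rose. In KD 1 rose, 1 fell and 5 did not pass, beside 11.0% and 10.4% of all genes. Their summed level in OE was 70.5 ± 1.81 CPM per kb, below 94.1 ± 2.98 for WT and 90.9 ± 0.836 for KD. The summed fibroblast and mural markers, mostly Col1a1 and Col3a1, were also lower in OE, at 5079 to 5190 CPM against 8104 to 8973 CPM in WT. Cnn1 of that list did not fall (0.750 CPM in WT, 0.757 CPM in OE). The summed endothelial markers, mostly Eng, were lower in OE as well, at 115 to 127 CPM against 152 to 164 CPM. Of those that reached 1 CPM, Eng, Kdr, Tek and Egfl7 had lower means in OE than in WT. Flt1 (17.2 CPM in WT, 21.9 CPM in OE) and Ecscr (4.73 and 8.18 CPM) had higher ones. In bulk RNA fewer cells of a type and less RNA per cell cannot be told apart. The part of these differences in the Frizzled levels was not tested. In WT the order per kb was Fzd2 (36.1), Fzd7 (27.3), Fzd6 (12.8), Fzd1 (9.97), Fzd4 (3.45), Fzd8 (2.42) and Fzd5 (2.06), of which Fzd8 and Fzd5 overlapped between libraries.

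Fzd4, the receptor that Norrin and Wnt ligands use in retinal vessels, had the largest fall of the family. It read 23.6, 24.3 and 21.8 CPM in WT, 22.9, 22.4 and 22.0 CPM in KD, and 10.9, 9.09 and 9.05 CPM in OE. KD lay within the WT range and OE far below it. The log2 fold change was -1.26 (SE 0.099, edgeR adjusted p = 1.29e-10) in OE and -0.050 (edgeR adjusted p = 0.73) in KD. Fzd4 (ENSMUSG00000049791) lies at chr7:89404355-89413134 on the plus strand and overlaps no other annotated gene.

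Fzd8 had 13.6, 13.4 and 16.4 CPM in WT, 15.2, 13.7 and 14.7 CPM in KD, and 7.37, 8.48 and 8.42 CPM in OE, a fall of the OE group (log2 fold change -0.83, SE 0.11, edgeR adjusted p = 8.04e-07). Fzd6, a receptor of planar polarity, had 60.0, 64.6 and 59.8 CPM in WT, 68.4, 71.5 and 68.1 CPM in KD, and 34.6, 39.5 and 34.9 CPM in OE. It fell in OE (-0.76, SE 0.071, edgeR adjusted p = 1.42e-09) and its KD libraries lay above WT (0.17, SE 0.043, edgeR adjusted p = 0.033). Fzd7 had 121, 126 and 125 CPM in WT, 123, 125 and 122 CPM in KD, and 78.8, 86.3 and 82.6 CPM in OE, lower in OE by -0.59 (SE 0.041, edgeR adjusted p = 1.23e-09). For Fzd7 the KD value was -0.0065, with KD and WT libraries intermixed.

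Fzd2, which had the highest level per kilobase of the Frizzleds in each group, was lower in KD and in OE. It had 133, 122 and 142 CPM in WT, 114, 116 and 109 CPM in KD, and 111, 114 and 118 CPM in OE, with log2 fold changes of -0.22 (SE 0.067, edgeR adjusted p = 0.003) and -0.21 (SE 0.068, edgeR adjusted p = 0.00259). Fzd1 and Fzd5 did not pass against WT. Fzd1 had 37.0, 43.2 and 45.3 CPM in WT, 42.4, 40.0 and 45.4 CPM in KD, and 37.6, 36.2 and 38.9 CPM in OE. Fzd5 had 12.0, 15.8 and 15.0 CPM in WT, 15.8, 16.8 and 17.3 CPM in KD, and 12.1, 11.8 and 13.1 CPM in OE. WT replicate 1 was the lowest WT library for both, and without it both passed in OE, at -0.24 (edgeR adjusted p = 0.00736) for Fzd1 and -0.32 (edgeR adjusted p = 0.00786) for Fzd5. Without WT replicate 2 Fzd5 also passed in KD (0.30, edgeR adjusted p = 0.0281). Between OE and KD, 6 of the 7 were lower in OE, where 22.1% of all genes were lower and 19.4% higher. Fzd5 differed by -0.43 (SE 0.061, edgeR adjusted p = 0.000887) and Fzd1 by -0.18 (SE 0.061, edgeR adjusted p = 0.0402). The Fzd6 call in KD held in 11 and the Fzd1 call between OE and KD in 10 of 18 alternative settings. The former was lost without WT replicate 1 or 3 or any KD replicate (0.15 to 0.19), and the latter without KD replicate 1 or 3 or any OE replicate (-0.21 to -0.13).

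**Figure D3:**
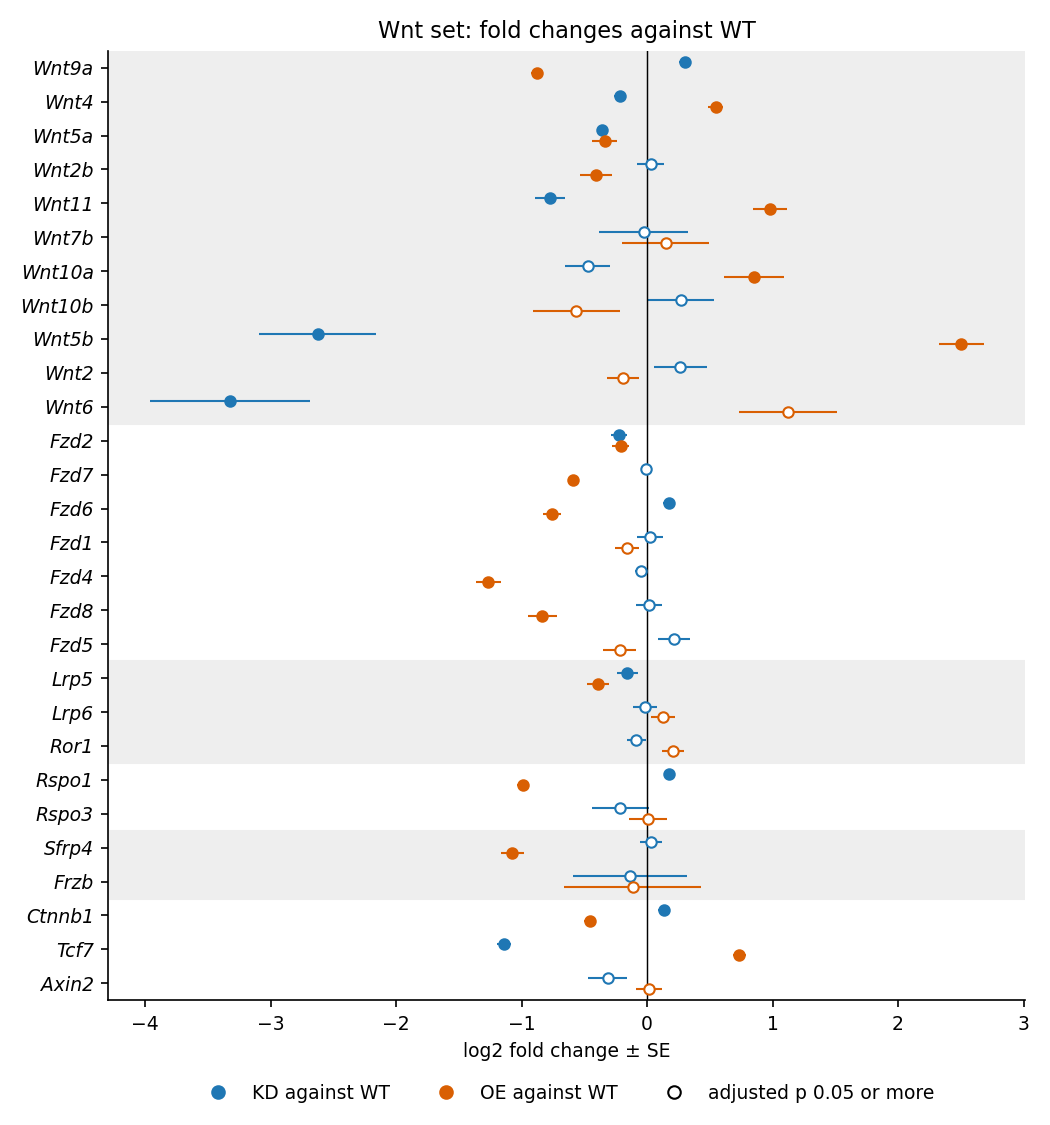
Log2 fold changes of the 28 tested members against WT, KD in blue and OE in orange, with the SE over 3 libraries a group as bars; filled points have an edgeR adjusted p under 0.05 and shading separates the roles. Wnt5b has -2.62 and 2.50, 5 of 7 Frizzleds have filled OE points below 0, and Rspo1 and Sfrp4 stand near -1 in OE.

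The co-receptors changed less. Lrp5, which pairs with Frizzleds for β-catenin signalling, had 170.3, 177 and 207 CPM in WT, 166 CPM in each KD library, and 138, 142 and 144 CPM in OE. It fell in OE (log2 fold change -0.39, SE 0.087, edgeR adjusted p = 1.45e-05), with every OE library below the others. The KD value of -0.16 (SE 0.086, edgeR adjusted p = 0.0498) sat at the threshold and held in 5 of 18 alternative settings. It was lost without WT replicate 3, the highest WT library (-0.067, edgeR adjusted p = 0.257), and without each KD or OE replicate (-0.16 to -0.15). Lrp6 had 115, 139.9 and 139.7 CPM in WT, 129.8, 132 and 128 CPM in KD, and 144, 144 and 143 CPM in OE, and did not pass in OE (0.13, SE 0.096, edgeR adjusted p = 0.10) or in KD (-0.016). Without WT replicate 2 its OE value passed (0.17, edgeR adjusted p = 0.0374). Its difference between OE and KD was 0.14 (SE 0.013, edgeR adjusted p = 0.058), and passed without WT replicate 1 (edgeR adjusted p = 0.00439) or WT replicate 2 (edgeR adjusted p = 0.0488). Ror1, a receptor tyrosine kinase-like protein that binds Wnt5a, had 9.07, 8.92 and 9.55 CPM in WT, 8.76, 7.86 and 9.26 CPM in KD, and 9.46, 11.0 and 11.4 CPM in OE. Only OE against KD passed for Ror1, at 0.30 (SE 0.11, edgeR adjusted p = 0.0233), and was lost without KD replicate 1 or 2 or OE replicate 2 or 3 (0.23 to 0.30). It was also lost with library totals alone (0.27, edgeR adjusted p = 0.0618).

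Rspo1, which enhances the signal through Lgr receptors, was the main R-spondin of these cells. It had 99.4, 94.1 and 98.7 CPM in WT, 113, 108 and 108 CPM in KD, and 48.0, 51.8 and 47.6 CPM in OE. All OE libraries lay far below WT and all KD libraries above it. The log2 fold change was -0.99 (SE 0.046, edgeR adjusted p = 1.38e-12) in OE and 0.17 (SE 0.033, edgeR adjusted p = 0.0107) in KD. The KD call was lost without KD replicate 1 (0.15, edgeR adjusted p = 0.0708) and with library totals alone (0.14, edgeR adjusted p = 0.19). Rspo1 (ENSMUSG00000028871, chr4:124986430-125009099, plus strand) overlaps Gm12930 on the opposite strand. Per kb, Rspo1 in WT, at 50.3 ± 1.48, exceeded every ligand and receptor of the set. Rspo3, at 1.07 ± 0.136 CPM per kb in WT, had 3.69, 2.86 and 3.38 CPM in WT, 2.40, 2.41 and 3.69 CPM in KD, and 3.67, 2.85 and 3.40 CPM in OE, and its groups overlapped.

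Among the secreted antagonists, Sfrp4, a Frizzled-related protein that binds Wnt ligands, was the only one above 1 CPM. It had 24.2, 20.9 and 23.2 CPM in WT, 21.2, 24.5 and 24.0 CPM in KD, and 10.0, 11.7 and 10.6 CPM in OE. KD overlapped WT (0.031, edgeR adjusted p = 0.848), and OE lay below it (-1.07, SE 0.091, edgeR adjusted p = 2.74e-09). Frzb averaged 0.555 CPM in WT, 0.515 CPM in KD and 0.524 CPM in OE. Summed per kb, the antagonists had 5.69 ± 0.363 in WT, 5.75 ± 0.457 in KD and 2.80 ± 0.157 in OE, and the R-spondins 51.3 ± 1.61, 57.6 ± 1.48 and 26.4 ± 1.08. In OE an enhancer and an inhibitor of the signal were both lower.

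Downstream of the receptors, Tcf7, a TCF factor that turns β-catenin into transcription, followed the order KD, WT, OE. It had 6.96, 6.71 and 7.27 CPM in WT, 3.20, 3.32 and 2.97 CPM in KD, and 11.6, 11.1 and 12.2 CPM in OE. The groups were well separate. Its log2 fold change was -1.14 (SE 0.057, edgeR adjusted p = 3.09e-07) in KD and 0.74 (SE 0.053, edgeR adjusted p = 8.41e-06) in OE. Tcf7 (ENSMUSG00000000782) lies at chr11:52252371-52283014 on the minus strand and overlaps Gm26551 on the same strand and A630014C17Rik on the opposite strand. Lef1, the related factor, had at most 1 count in any library.

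Ctnnb1, which encodes β-catenin, had 445, 488 and 487 CPM in WT, 521, 520.1 and 514 CPM in KD, and 340.1, 343 and 351 CPM in OE. It was lower in OE (-0.46, SE 0.046, edgeR adjusted p = 1.66e-08) and slightly higher in KD (0.13, SE 0.044, edgeR adjusted p = 0.025). The KD call was lost without WT replicate 1 (0.089, edgeR adjusted p = 0.12) and without each KD replicate (0.13 to 0.14), and held in 11 of 18 alternative settings. Ctnnb1 (ENSMUSG00000006932, chr9:120929216-120960507, plus strand) overlaps Ulk4, 4930593C16Rik and Mir7090. Axin2, a scaffold of the β-catenin destruction complex and a widely used readout of the pathway, had 5.46, 5.08 and 5.73 CPM in WT, 5.19, 4.24 and 3.63 CPM in KD, and 5.48, 6.06 and 4.85 CPM in OE. Its libraries overlapped in every comparison, with log2 fold changes of -0.31 (SE 0.16, edgeR adjusted p = 0.142) in KD, 0.014 (SE 0.11, edgeR adjusted p = 0.955) in OE and 0.33 (SE 0.17, edgeR adjusted p = 0.0794) between OE and KD. The last passed without KD replicate 1, at 0.47 (edgeR adjusted p = 0.0252).

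Several members lie in stretches of the genome whose genes shifted together. For each member the median log2 fold change was taken over the tested genes within 10 Mb on either side, a window of 20 Mb. In each library the median deviation of log2 CPM in that window was then removed. The resulting values were fitted with limma in place of the edgeR fit of counts. This limma fit was not run without the removal. The part of the change of model in a changed value or call was not tested. Around Ctnnb1 on chromosome 9 the median was -0.45 in OE and 0.15 in KD against WT, and -0.64 between OE and KD. With it removed, the Ctnnb1 values became -0.017 in OE (limma adjusted p = 0.807), -0.037 in KD (limma adjusted p = 0.628) and 0.020 between OE and KD (limma adjusted p = 0.758), and none of its 3 calls was kept. Around Wnt4 the median was 0.31 in OE and -0.17 in KD, and Wnt4 itself then read 0.24 in OE and -0.045 in KD (limma adjusted p = 0.631). For Ror1, in a window with a median of 0.41 between OE and KD, the difference turned to -0.093 (limma adjusted p = 0.519). The reverse held for Rspo1, where the region's median was 0.37 in OE and its own value became -1.34, and for Sfrp4, with 0.26 and -1.33. The windows of Wnt4 and Rspo1 on chromosome 4 overlap, so their medians are not independent. Ror1 lies on the same chromosome. The KD calls of Fzd6 (0.091) and Lrp5 (-0.086) and the Fzd1 call between OE and KD (-0.14) were lost, while Fzd7 passed in KD (-0.18, limma adjusted p = 0.0144), and Lrp6 (0.18) and Fzd5 (-0.26) passed in OE. The changes of Wnt5b, Wnt11, Wnt9a, Fzd4 and Tcf7 came with regional medians in OE between -0.052 and 0.018. Bcl9l, a β-catenin co-activator outside the set, has an OE regional median of -0.35, and without it the Bcl9l value in OE went from -0.51 to -0.14 (limma adjusted p = 0.0365). Its difference between OE and KD went from -0.54 to -0.00082 (limma adjusted p = 0.992). The part of such regional shifts in any result was not tested beyond this.

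**Figure D4:**
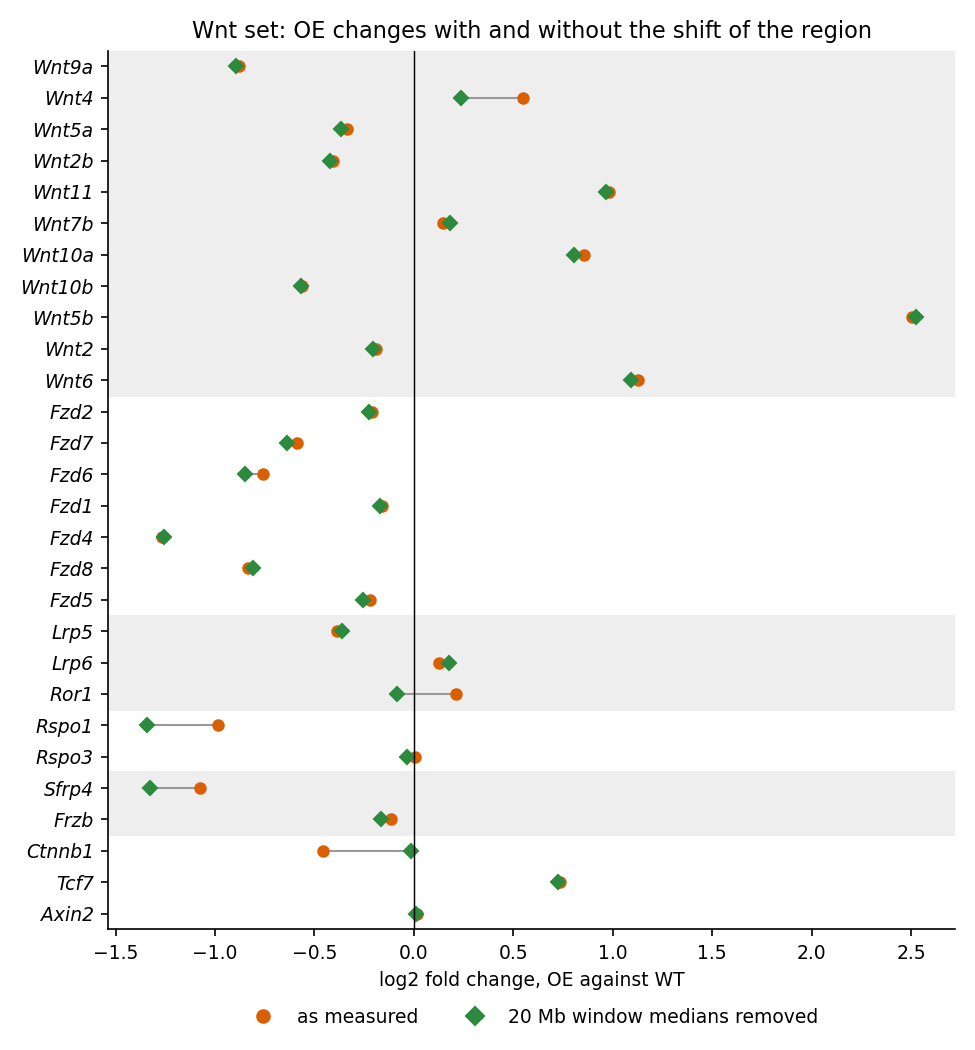
Log2 fold change of each tested member in OE against WT as measured (circles) and after the median of its 20 Mb window was removed from each library (diamonds), joined by a line. Ctnnb1 moves from -0.46 to -0.017 and Wnt4 from 0.55 to 0.24, whereas Rspo1 moves away from 0, to -1.34.

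The other 23 members did not pass the filter on low counts. They are Wnt1, Wnt3, Wnt3a, Wnt7a, Wnt8a, Wnt8b, Wnt9b and Wnt16 among the ligands, Fzd3, Fzd9 and Fzd10, Ror2, Rspo2 and Rspo4, Dkk1, Dkk2, Dkk3 and Dkk4, Sfrp1, Sfrp2 and Sfrp5, Wif1, and Lef1. Dkk1, Wnt9b and Fzd10 had 0 counts in all 9 libraries. The highest count of any of the 23 in a library was 20, for Fzd9 in KD replicate 3, and 19 of them had at most 9 counts in every library. Wnt1, whose neighbour Wnt10b lies 11706 bases away, had 7, 5 and 9 counts in WT, 0, 3 and 0 in KD, and 17, 3 and 14 in OE. Fitted with no filter beyond 1 count, the 20 members with any count gave 60 differences, of which 1 passed and 5 had an unadjusted p under 0.05. The one that passed was Wnt1 between OE and KD (edgeR adjusted p = 0.00857), where 1 library of each group had 3 counts. DESeq2, a second fit of the same counts, also called it (DESeq2 adjusted p = 0.0176). It gave an adjusted p for only 7 of the 60 differences. Thus 8 of 10 antagonists, and all of the Dkk family, were at or near the floor of detection in every group.

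Genes that act around the set were taken from 4 lists of other pathway components, with 121 genes matched and 99 tested. The lists were chosen with earlier results of these data known. Shares over all genes are therefore given beside their counts as background and not as a test. In KD 39 of the 99 passed, 19 higher and 20 lower, where 21.3% of all genes passed, and in OE 54, 26 higher and 28 lower, against 36.4%. Between OE and KD 65 passed, against 41.5% of all genes. Scaled by library totals alone, the KD count became 23, 6 higher and 17 lower. In both comparisons with WT the list median lay closest to 0 for the intracellular transducers, of which 10 of 37 tested rose and 10 fell in OE. In the list of Wnt secretion and receptor turnover, of 14 tested none rose and 7 fell in OE, where 17.0% of all genes rose and 19.5% fell, with a median log2 fold change of -0.39, beside 0.0020 over all genes. In KD 3 of these 14 rose and 3 fell, where the shares over all genes were 11.0% and 10.4%. Read against the same shares, among 28 tested genes reported as Wnt targets 11 rose and 6 fell in OE, and 7 rose and 9 fell in KD, and among 23 tested genes of noncanonical signalling and its co-receptors 5 rose and 6 fell in OE, and 4 rose and 4 fell in KD. The list counts include Gpc6 and Nkd2, which the filter kept only through their WT libraries.

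**Figure D5:**
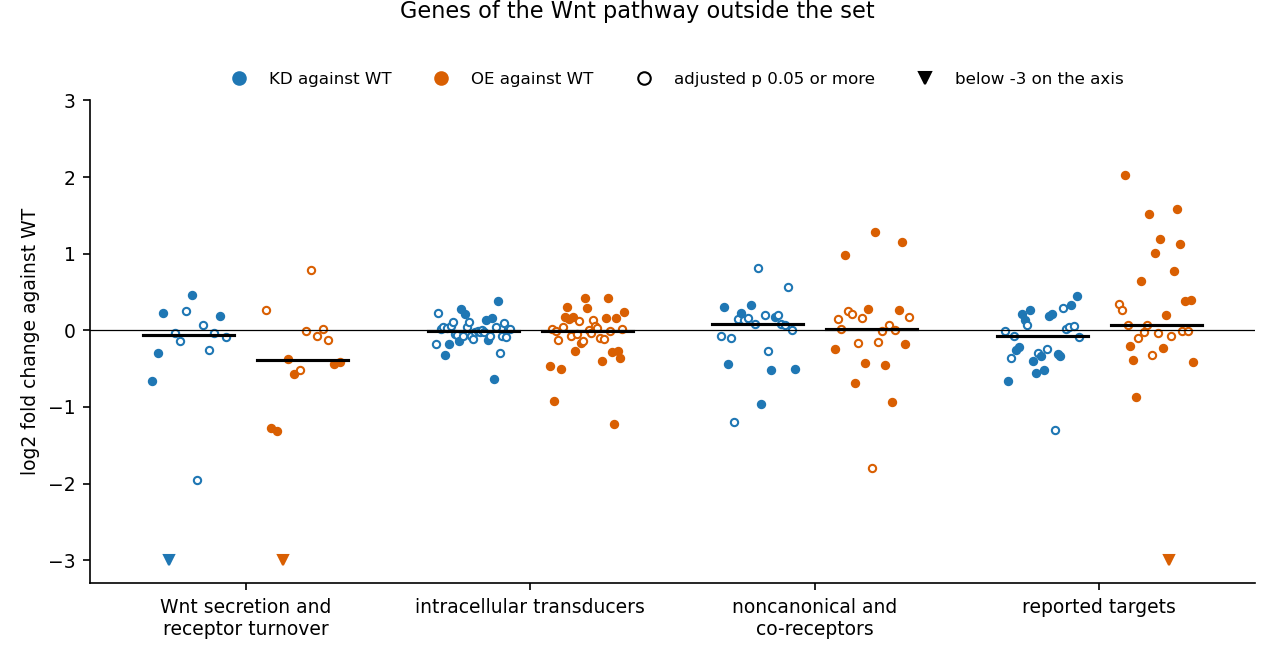
Log2 fold change against WT of the tested genes of the 4 pathway lists outside the set, each point 1 gene, KD in blue and OE in orange, filled where the edgeR adjusted p was under 0.05, with the list median as a bar; triangles mark genes beyond the axis. In the list of Wnt secretion and receptor turnover the OE median lies at -0.39, and the other OE medians lie near 0.

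The falls in the secretion and turnover list were largest for glypicans, cell-surface proteoglycans that hold Wnt proteins. Gpc4 had 35.2 ± 0.833 CPM in WT, 40.9 ± 1.87 in KD and 14.1 ± 1.13 in OE, a log2 fold change of -1.31 in OE (SE 0.071, edgeR adjusted p = 3.63e-12). Gpc3 had 88.5 ± 3.37, 71.9 ± 1.1 and 36.7 ± 0.823 CPM, -1.27 in OE (SE 0.037, edgeR adjusted p = 2.76e-14) and -0.30 in KD (edgeR adjusted p = 8.34e-05). Gpc6 had 24, 59 and 20 counts in WT, 0 in every KD library and 1, 4 and 0 in OE. It was kept by the filter only through its WT libraries, so its counts alone are given. Apcdd1, a membrane inhibitor of the pathway, fell from 7.97 ± 0.547 CPM in WT to 5.02 ± 0.940 CPM in KD (-0.66, edgeR adjusted p = 0.00112), with 9.56 ± 1.20 CPM in OE (edgeR adjusted p = 0.12). The small rise of Gpc4 in KD (0.22, edgeR adjusted p = 0.0172) was lost without KD replicate 1 (0.22, edgeR adjusted p = 0.0615) or KD replicate 2 (0.19, edgeR adjusted p = 0.104). Library totals alone also lost it (edgeR adjusted p = 0.117).

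Of the transducers, Tcf7l1, another TCF factor, shared the order of Tcf7, with 20.3 ± 2.05 CPM in WT, 13.1 ± 1.71 in KD (-0.64, edgeR adjusted p = 4.09e-05) and 27.3 ± 1.30 in OE (0.42, edgeR adjusted p = 0.000749). The co-repressor Tle2 fell in OE from 4.59 ± 0.557 to 1.97 ± 0.259 CPM (-1.22, edgeR adjusted p = 4.04e-06), Apc2, a relative of the tumour suppressor Apc, from 29.8 ± 2.01 to 15.7 ± 1.63 CPM (-0.92, edgeR adjusted p = 4.54e-09), and Bcl9l, whose region shifted likewise, from 198 ± 11.1 to 139 ± 3.80 CPM (-0.51, edgeR adjusted p = 1.17e-08). In the noncanonical list, Prickle1, a planar polarity protein, had 1.58 ± 0.453 CPM in WT, 0.824 ± 0.226 in KD (-0.96, edgeR adjusted p = 0.00807) and 3.88 ± 0.333 in OE (1.28, edgeR adjusted p = 8.83e-05), the KD call being lost without KD replicate 3 (-0.82, edgeR adjusted p = 0.0544). Reck, which relays Wnt7 signals together with Adgra2, fell in OE from 11.6 ± 0.878 to 6.09 ± 0.736 CPM (-0.93, edgeR adjusted p = 6.64e-07). Celsr2 rose in OE (0.98, edgeR adjusted p = 0.0199), but not without WT replicate 1 (0.83), WT replicate 2 (0.87) or OE replicate 1 (0.66). Tspan12, a partner of Fzd4, rose from 0.432 ± 0.226 to 0.928 ± 0.276 CPM in OE (1.15, edgeR adjusted p = 0.0257) with overlapping groups, and this was lost without WT replicate 2 (0.84), WT replicate 3 (1.04), OE replicate 2 (0.90) or OE replicate 3 (1.16).

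Of the reported targets, Apln, an endothelial peptide hormone, rose in OE from 0.316 ± 0.169 to 1.25 ± 0.216 CPM (2.02, edgeR adjusted p = 0.000517), Snai2, a transcription factor of mesenchymal transition, from 1.25 ± 0.150 to 3.75 ± 0.247 CPM (1.58, edgeR adjusted p = 1.68e-06), and Fosl1, an AP-1 subunit, from 2.24 ± 0.175 to 6.37 ± 0.248 CPM (1.51, edgeR adjusted p = 1.84e-07). Nkd2, an inhibitor of the pathway, had 11, 14 and 21 counts in WT and 2, 0 and 2 in OE; it was kept by the filter only through WT, so its counts alone are given. Fosl1 was also lower in KD, at 1.51 ± 0.315 CPM (-0.55, edgeR adjusted p = 0.0303), and that call needed WT replicate 1 (-0.50 without it), KD replicate 1 (-0.60) and KD replicate 2 (-0.41). It was also lost with limma-voom (limma-voom adjusted p = 0.067) and in the fit of KD and WT alone (edgeR adjusted p = 0.0845).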

How the data were processed

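Poly-A selected RNA of 9 MCEC samples was sequenced in 150-base read pairs, per the labels' protocols. The authors deposited unnormalised whole-number counts for each gene in each library, as the values show. Genome builds GRCm38 and mm10 are named per the submitters' processing notes; the aligner, the counting program and the use of strand are not given in the sources used here. The table's 55774 rows repeat 168 genes on 455 rows; each was counted once, leaving 55487 genes, and 0 columns were left over. Groups came from the sample titles.

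Counts were fitted with edgeR 4.0.16 (R 4.3.3): filterByExpr by group (16955 genes), TMM scaling, and a robust quasi-likelihood model of group over all 9 libraries. P-values of edgeR's quasi-likelihood test were adjusted by the Benjamini-Hochberg method over all genes tested, threshold 0.05. With 3 libraries a group the smallest two-sided p of an exact permutation test is 0.1, so none was used. Standard errors of fold changes rest on the SDs of log2 CPM (prior count 2) and not on the edgeR fit that gave the fold changes. The prior narrows the spread at low counts, as for Wnt5b and Wnt6 in KD, so those SEs may be too small. Exon lengths and positions are from GENCODE M21, and promoters from RefSeq. Windows of 20 Mb with at least 10 genes gave the regional medians, refitted with limma 3.58.1. Every tested member is named, as are Zbtb46 and the up to 4 largest changes of each pathway list. Of the listed names 1, Tiki1, matched no gene, and 6 genes are in more than 1 list. Alternatives were DESeq2 (1.42.0) and its size factors, library totals alone, other filters, limma-voom, only the 2 groups compared, a replicate block, leaving out each library, and regional medians removed. The procedure was tested on simulated data. Members and lists were chosen with earlier results of these data known.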

Additional observations from a re-analysis of the deposited data

How the results depend on the processing

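The counts of members past the threshold ran from 8 to 13 in KD against WT, 16 to 19 in OE against WT and 17 to 21 in OE against KD over all alternatives, beside 12, 17 and 20. Of the 49 member differences called, 38 were kept under every alternative that could be fitted and 11 were lost under at least 1. The 49 and the 38 include Wnt6 in OE against KD, a gene that the filter kept only through OE. Of 35 not called, 8 passed at least once. Values that passed neither in the main analysis nor in the alternative were compared by call alone, and 61 such values changed sign. With regional medians removed and limma in place of edgeR, 3 values reversed, each no longer past the threshold. They were Ror1 in OE against KD (-0.093), Ctnnb1 in KD against WT (-0.037) and Ctnnb1 in OE against KD (0.020). Around Ctnnb1 the regional medians were close to its own changes, and around Ror1 the regional median between OE and KD was larger than its own value. The cause was not tested. Library totals alone gave 23 pathway genes outside the set in KD against WT in place of 39, and lowered the share of higher calls among all genes from 51.4 to 35.8% in KD and from 46.6 to 31.6% in OE, and among members from 33.3 to 12.5% in KD; the cause was not tested. The filter of at least 10 counts in every library left out Wnt5b and Wnt6, and the fit of KD and WT alone also left out Wnt6.

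With the replicate number as a block, 3574, 6111 and 6969 genes passed in KD against WT, OE against WT and OE against KD, 12, 17 and 20 members, and 37, 54 and 65 pathway genes outside the set. The deviations of libraries sharing a number had correlations of -0.042 to 0.049 over 9 pairs, against -0.061 to 0.042 over 18 other pairs. These values show no common deviation by number. They do not tell whether libraries with the same number shared a preparation. The 23 members not tested had at most 20 counts in any library; with no filter 1 of their 60 differences that could be fitted passed.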
